A study of Mus musculus with 24 samples.

Results

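The genes described here are those whose transcripts stood higher in cells held in the code-named compound R07 for 36, 72 and 120 h than at any time of an estradiol withdrawal course. Of 45319 gene rows in the count table, 46 met the rule, or 0.102%. The rule took CPM, a gene's counts per 1e+06 gene counts of its library, on the scale log2(CPM + 1). It kept a gene where the lowest of the 3 late R07 libraries lay at least 0.8 above the highest of the 20 withdrawal libraries, and this difference is called the margin below. The late R07 levels and the withdrawal maxima therefore chose the genes. Late R07 levels are given with no test, and changes within withdrawal, whose maximum the rule used, are given as description. Only the R07 library at 12 h was not used by the rule. Just inside the threshold lay Gfra1 (margin 0.82), Sec1 and Otos (both 0.80), and among genes just outside were St3gal6 and Tns1 (both 0.77).

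The study followed Lys-GFP-ER-HoxA9 cells, a mouse line of C57Bl/6 background grown in stem cell factor with 0.5 uM estradiol. By its name the line carries a lysozyme-GFP reporter and HoxA9 joined to an oestrogen receptor domain, so that the whole model is a single engineered line. Estradiol was taken away for 0, 4, 8, 12, 24, 36, 48, 72, 96 or 120 h, with 2 libraries at each of these 10 times. R07 was sampled with 1 library each at 12, 36, 72 and 120 h. Every library, R07 included, carries the same growth and withdrawal text, and the labels do not state the dose of R07, a vehicle control, or whether estradiol stayed in the medium with it. Nothing states that libraries of a time came from separate cultures, so p-values measure only the spread between these libraries.

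HoxA9 is a homeobox transcription factor that helps to keep blood progenitors immature, usually together with Meis and Pbx partners. In lines of this design the hormone keeps the fusion protein active, and removing it lets the cells mature along the myeloid path. Maturing myeloid cells lose progenitor transcripts and gain those of granules, lysosomes and phagocytes.

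Each library held between 36.7 and 49.6 M gene counts, with a median of 43.7, and the libraries of a time correlated at a Pearson r of 0.993 to 0.996 on the log2 scale across genes. The labels do not name a cell type. Some progenitor markers were present at 0 h, with Cd34 at 2941 ± 50.01 CPM, Kit at 809 ± 59.96 and Flt3 at 335 ± 36.1 (mean ± SD, n = 2). Others of the same progenitor list, Mecom, Mn1, Bcl11a and Runx1t1, stood at or near 0 in every R07 library. That statement covers R07 only and is no comparison with 0 h. Hoxa9 transcripts, which could come from the fusion or the native gene, stood at 149 ± 15.8 CPM at 0 h and at 86.1, 72.5, 226 and 198 CPM in the R07 libraries in order of time. In bulk RNA, fewer cells of a type and less RNA per cell cannot be told apart.

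The 46 genes lay on 17 chromosomes, with 6 on chromosome 1, and 44 are annotated as protein coding, 1 as antisense and 1 as lincRNA. Together they held 619 ± 47.0 CPM at 0 h, 416 ± 8.87 at 12 h, 147 ± 11.2 at 96 h and 213 ± 17.7 at 120 h of withdrawal (mean ± SD, n = 2). In R07 the same sum was 930 CPM at 12 h, 1890 at 36 h, 2292 at 72 h and 2204 at 120 h. Gene by gene, the mean of the late R07 libraries was 2.17 to 13.6 times the 0 h mean (median 4.02). The lowest late R07 library was 1.78 to 6.57 times the highest withdrawal library (median 2.31). All had reads at 0 h, before estradiol was removed, at a mean of 0.414 to 113 CPM (median 4.66). Per kilobase of exon, the late R07 level ran from 0.663 CPM for Adcy9 to 120 CPM for Gas6, with Col4a5 next at 30.0, so that Gas6 was the most abundant of the set on that scale.

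**Figure D1:**
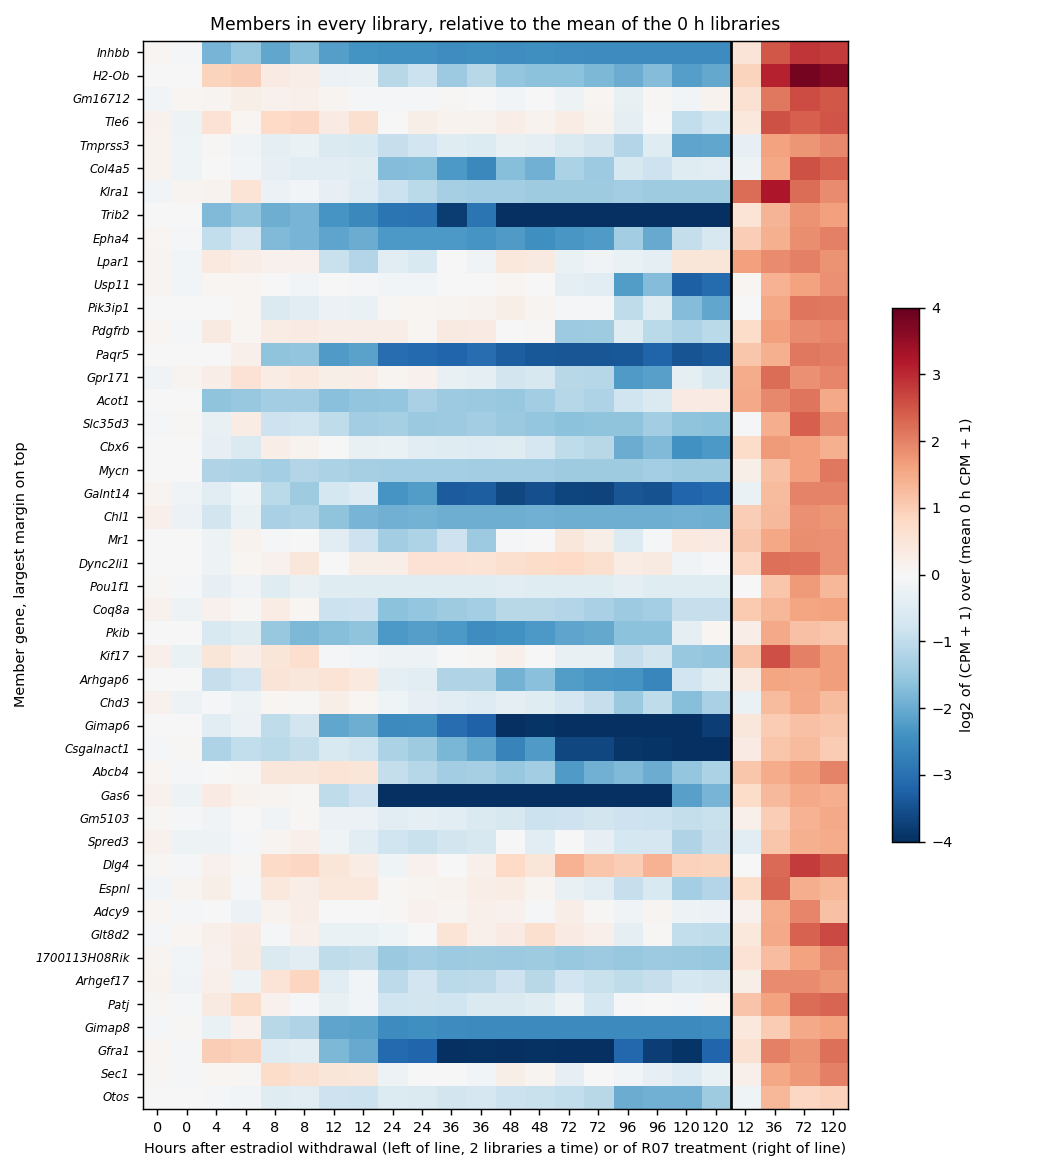
Level of each of the 46 genes (rows, largest margin on top) in every library (columns), as log2 of (CPM + 1) over (mean 0 h CPM + 1), with withdrawal left of the black line and R07 right of it. The 3 late R07 columns are red in all rows because the rule chose them so; the R07 12 h column ranges from pale blue (Spred3) to red (Klra1), and many rows turn blue during withdrawal while others stay pale.

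Among genes for secreted proteins, Inhbb had the largest margin of the set, 2.42. It encodes the inhibin beta B chain, which forms activin B and inhibin B, ligands of the TGF-beta family (ENSMUSG00000037035.5, chromosome 1, 119415465 to 119422248, minus strand, mm10). The R07 libraries held 7.17, 30.8, 40.0 and 38.6 CPM at 12, 36, 72 and 120 h. In withdrawal it stood at 4.95 and 4.41 CPM at 0 h, at 0.569 and 0.970 at 4 h and at 0.229 and 0.0748 at 12 h, and no read was found at 96 or 120 h. All 4 R07 libraries thus lay above all 20 withdrawal libraries. The 250 bases before the RefSeq start of Inhbb are shown because this gene had the largest margin; they lie at chr1:119422249-119422498 (minus strand, GRCm38.p6) and hold a GC box, GGGCGG, on the reverse strand, in capitals.
Inhbb: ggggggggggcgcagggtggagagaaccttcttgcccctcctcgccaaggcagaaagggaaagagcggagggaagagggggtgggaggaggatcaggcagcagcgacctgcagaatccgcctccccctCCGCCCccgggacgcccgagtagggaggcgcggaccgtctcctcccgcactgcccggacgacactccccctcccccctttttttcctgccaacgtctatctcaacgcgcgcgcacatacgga

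Gas6 encodes the ligand of the receptor kinases Tyro3, Axl and Mer (ENSMUSG00000031451.5, chromosome 8, 13465374 to 13494490, minus strand). Its R07 libraries held 188, 280, 326 and 313 CPM. Withdrawal libraries held 127 and 99.3 CPM at 0 h, 2.92 and 2.84 at 24 h, 0.347 and 0.101 at 48 h, and 24.2 and 30.7 at 120 h. Gas6 therefore fell out of the withdrawal course for several days and was partly back at its end, below every R07 library. Col4a5, a chain of basement membrane collagen (ENSMUSG00000031274.13, chromosome X, 141475385 to 141689234, plus strand), held 36.8, 127, 252 and 225 CPM in R07 against 47.5 and 37.7 at 0 h, 7.83 and 6.24 at 36 h and 30.0 and 30.5 at 120 h of withdrawal. Its 12 h R07 library lay below both 0 h libraries, so that Col4a5 separated from withdrawal only in the later R07 libraries. Otos, which encodes otospiralin, a small secreted protein first known from the inner ear, was the lowest margin of the set, at 3.67, 12.2, 8.18 and 8.84 CPM in R07 against 0.314 to 4.26 in withdrawal (median 2.06).

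Several members encode surface receptors. Klra1 encodes Ly49A, an inhibitory receptor of natural killer cells (ENSMUSG00000079853.4, chromosome 6, 130363917 to 130386874, minus strand). It held 11.7, 24.5, 11.7 and 9.10 CPM in R07 and 0 to 2.93 in withdrawal (median 0.169), and it was the 1 gene whose R07 12 h level was not below its lowest late R07 level. Klra1 belongs to a family of near-identical genes, and reads could be split or lost among its copies. Of the list of 24 T and natural killer cell genes, 3 of 14 tested were higher at 12 h of R07 than at 12 h of withdrawal, 4 of 8 were higher in late R07 than in withdrawal at the same times, and the rest were not called. Over all genes, 13.4% were higher at 12 h and 12.4% in late R07 (edgeR). The list's sum was 66.6 CPM in R07 at 12 h and 26.2 to 93.8 in late R07, against 31.7 to 175.6 over the withdrawal libraries (median 65.3). Of the genes on the list, Cd3e, Cd8a, Ncr1, Gzma and Bcl11b had no read in any R07 library. Other genes of the list had reads and make up its sum. Nkg7 held 7.40, 19.5, 10.3 and 4.53 CPM in R07 and at most 6.96 in withdrawal. It is a granule gene of T and natural killer cells and is also on the list of primary granule genes. The part of such cells in the level of Klra1 was not tested.

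Epha4, an ephrin receptor kinase, held 10.2, 14.1, 19.4 and 21.9 CPM in R07 against 0.0202 to 4.95 in withdrawal (median 0.416). Pdgfrb, the beta receptor for platelet-derived growth factor, held 21.6, 42.0, 49.8 and 52.3 CPM against 3.97 to 16.6 (median 13.4). Lpar1, a receptor for lysophosphatidic acid, held 21.3, 25.4, 27.5 and 23.8 CPM against 2.14 to 8.999 (median 5.89). In each of these 3 genes the 12 h R07 library already lay above all withdrawal libraries. The same held for Paqr5, a membrane progestin receptor, with 24.3, 30.6, 49.7 and 47.9 CPM in R07 against 0.0829 to 12.5 in withdrawal. It held too for Gpr171, a G protein-coupled receptor, with 25.3, 42.5, 31.7 and 35.0 CPM against 0.918 to 13.0. For Gfra1, the co-receptor of the growth factor GDNF, it did not hold: the R07 libraries held 38.9, 103, 89.6 and 119 CPM, and the 4 h withdrawal libraries 50.3 and 47.9.

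Other membrane proteins were Chl1, an adhesion molecule of the L1 family (6.73, 8.59, 12.7 and 12.4 CPM in R07 against 0 to 3.46), and Tmprss3, a membrane serine protease (7.24, 30.7, 33.9 and 38.1 against 1.41 to 10.4). Abcb4, which moves phosphatidylcholine across membranes, held 10.7, 14.3, 16.5 and 20.3 CPM against 0.143 to 6.87. Slc35d3, of the nucleotide sugar transporter family, held 1.97, 7.64, 15.5 and 10.7 CPM against 0 to 2.84. Of these 4, Chl1 and Abcb4 were above all withdrawal libraries at 12 h of R07, whereas Tmprss3 and Slc35d3 were within the withdrawal range.

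H2-Ob and Mr1 belong to antigen presentation. H2-Ob encodes the beta chain of H2-O, which moderates peptide loading onto MHC class II (ENSMUSG00000041538.12, chromosome 17, 34238903 to 34254414, plus strand). Its R07 libraries held 11.1, 54.0, 91.5 and 82.2 CPM, a late mean 13.6 times that of 0 h, the highest such fold of the set. The withdrawal libraries held 5.46 and 5.69 CPM at 0 h, 11.3 and 12.0 at 4 h, 4.65 and 4.74 at 12 h, and 0.415 and 0.6001 at 120 h. The brief maximum at 4 h reached the level of the 12 h R07 library, and the later R07 libraries lay well above it. Of the class II genes themselves, H2-Aa was near 0 in R07, as was Cd74, the invariant chain. H2-Aa reached 0.763 CPM in R07 at most and Cd74 0.237, whereas their means at 120 h of withdrawal were 11.3 and 438 CPM. Their 0 h levels are not given here, so the low levels cannot be read as particular to R07. Mr1, an MHC-like molecule that presents vitamin B metabolites, held 10.4, 14.6, 18.3 and 18.1 CPM in R07 against 0.944 to 6.33 in withdrawal. The 248 bases before the gene for H2-Ob, at chr17:34238655-34238902 (plus strand, GRCm38.p6), are shown for contrast with Inhbb; GC content is 40.3% against 68.0% in the Inhbb window. Capitals mark a match to the ATF4-C/EBP motif TGATGNAA and a CCAAT box on the reverse strand.
H2-Ob: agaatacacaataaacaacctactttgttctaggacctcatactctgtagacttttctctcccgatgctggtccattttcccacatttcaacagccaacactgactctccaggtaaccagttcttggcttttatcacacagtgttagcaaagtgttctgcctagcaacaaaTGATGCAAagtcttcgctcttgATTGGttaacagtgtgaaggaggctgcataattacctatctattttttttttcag

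Among intracellular signalling genes, Trib2 encodes a pseudokinase that directs the myeloid factor C/EBP-alpha to degradation (ENSMUSG00000020601.7, chromosome 12, 15791727 to 15816922, minus strand). It held 34.2, 61.3, 83.6 and 73.6 CPM in R07. In withdrawal it stood at 23.4 and 22.8 CPM at 0 h, 6.01 and 7.15 at 4 h, 2.19 and 2.09 at 24 h, and 0.124 and 0.0273 at 120 h. Every R07 library was above, and every withdrawal library after 0 h was far below, the 0 h level. Of the 39 members with a promoter window in the table, Trib2 was the only one that held the HOX-PBX motif TGATTNAT. The bases upstream of the gene in that window, chr12:15816923-15817035 (minus strand, GRCm38.p6), are shown with that match and a MEIS match, TGACAG, in capitals.
Trib2: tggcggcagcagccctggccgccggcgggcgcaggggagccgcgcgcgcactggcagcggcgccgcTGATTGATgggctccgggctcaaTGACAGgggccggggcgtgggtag

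Pik3ip1, an inhibitor of phosphoinositide 3-kinase, held 22.4, 68.1, 104 and 102 CPM in R07 against 4.66 to 27.3 in withdrawal (median 22.2). Pkib, an inhibitor of protein kinase A, held 10.7, 26.6, 20.9 and 19.8 CPM against 0.729 to 9.27. Adcy9, an adenylyl cyclase, was among the least abundant, with 0.689, 3.21, 4.76 and 2.37 CPM against 0.271 to 0.818. Inhibitors and producers of second messenger signals were thus both in the set. Spred3, a Ras pathway inhibitor, held 1.93, 7.69, 9.78 and 10.3 CPM against 0.747 to 3.64. The GTPase regulators Arhgap6 (69.0, 161, 158 and 171 CPM against 7.94 to 78.3) and Arhgef17 (2.31, 9.34, 9.34 and 8.37 against 0.302 to 4.09) belong here as well. Dlg4, the synaptic scaffold PSD-95, held 2.66, 16.6, 24.1 and 20.05 CPM against 2.21 to 8.44, and Patj, a polarity scaffold, 4.07, 6.04, 10.0 and 10.7 against 0.332 to 2.89.

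**Figure D2:**
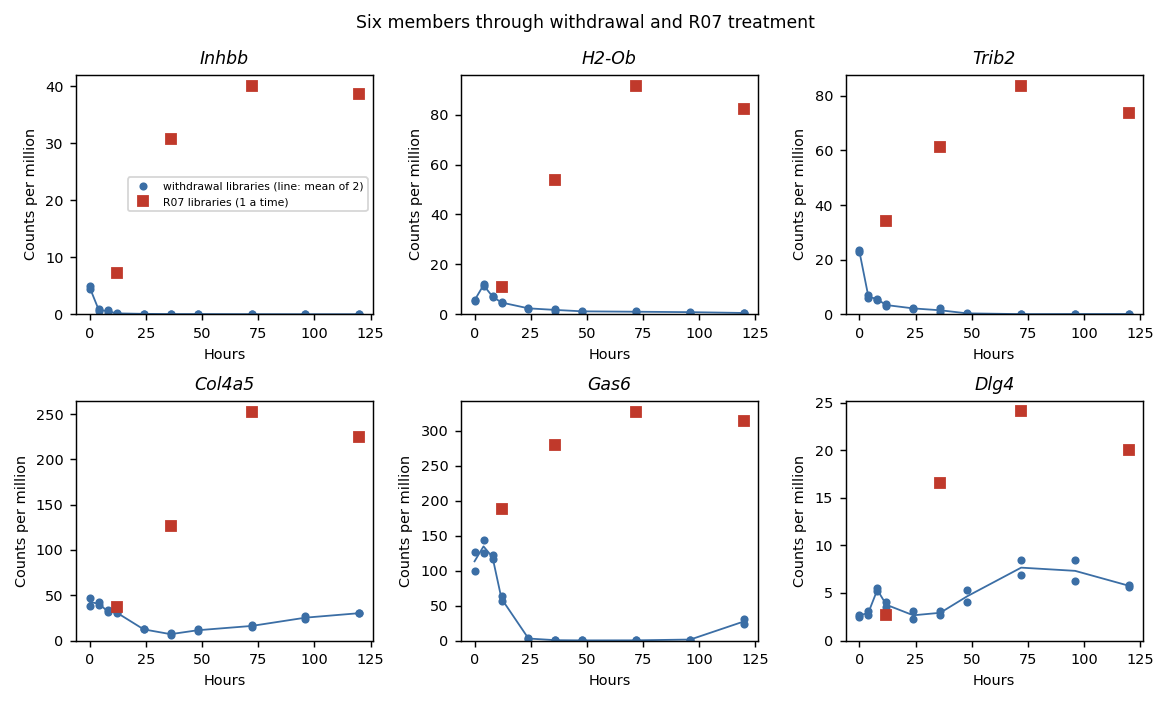
CPM of 6 of the genes against hours of withdrawal (blue points, 2 libraries a time, line through their mean) or of R07 (red squares, 1 library a time), on linear axes that differ between panels. Inhbb, Trib2 and Gas6 drop within 24 h of withdrawal while the R07 squares climb; in Col4a5 and Dlg4 the 12 h square lies within the withdrawal range and the later squares lie above it.

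Mycn, Pou1f1, Chd3, Cbx6, Tle6 and Usp11 encode transcription factors and other proteins with roles in the nucleus. Mycn, a proto-oncogene of the Myc family (ENSMUSG00000037169.11, chromosome 12, 12936093 to 12941914, minus strand), held 2.15, 5.07, 7.49 and 10.6 CPM in R07. It stood at 1.73 and 1.67 CPM at 0 h of withdrawal, at 0.182 and 0.113 at 4 h, and without a read at 120 h. Against the 3 counts that a count of 0 allows over the 120 h libraries, its late R07 mean was at least 219-fold higher and its 0 h mean at least 48.0-fold higher; these bounds cover counting error only. Pou1f1, a pituitary transcription factor, was the least abundant member, at 0.405, 2.02, 3.61 and 2.58 CPM in R07 and at 0 to 0.459 in withdrawal.

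Chd3, a remodeller of the NuRD complex, held 35.7, 104, 125 and 104 CPM in R07 against 12.5 to 51.4 in withdrawal (median 33.3). Cbx6, a Polycomb protein, held 7.84, 16.3, 15.7 and 13.4 CPM against 0 to 5.43. Tle6, a member of the Groucho co-repressor family, held 7.11, 34.0, 30.8 and 33.4 CPM against 2.05 to 9.73. Usp11, a deubiquitinating enzyme, held 24.6, 62.7, 72.6 and 85.8 CPM against 1.53 to 24.9. In Chd3, Tle6 and Usp11 the 12 h R07 library was inside the withdrawal range, and in Cbx6 it was above it.

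The neighbours Gimap8 and Gimap6, 40707 bases apart on chromosome 6, encode GTPases of the immunity-associated family found in lymphocytes. Gimap6 held 58.4, 86.0, 97.4 and 92.8 CPM in R07 and 42.1 and 42.7 at 0 h, then 0.287 and 0.281 at 72 h of withdrawal. Gimap8 held 6.83, 10.6, 15.6 and 16.5 CPM in R07 and 4.54 and 5.04 at 0 h, then no read at 48, 72 or 96 h. Both genes were above all withdrawal libraries in each R07 library. Besides this pair, only Chd3 and Dlg4 were adjacent members within 1 Mb of each other, 647536 bases apart.

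Acot1 and Coq8a encode metabolic enzymes. Acot1, a cytosolic acyl-CoA thioesterase (ENSMUSG00000072949.5, chromosome 12, 84009490 to 84018371, plus strand), held 66.0, 88.2, 102 and 66.1 CPM in R07. In withdrawal it stood at 21.9 and 22.8 CPM at 0 h, at 6.67 and 7.24 at 4 h and at 28.3 and 28.4 at 120 h, so that its withdrawal course dipped and then came back. Its close copy Acot2 could share reads with it. Coq8a, of coenzyme Q synthesis, held 44.2, 53.8, 64.2 and 65.8 CPM against 6.03 to 25.7.

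Of the glycosyltransferases, Csgalnact1, which starts chondroitin sulphate chains, held 56.3, 97.5, 109 and 91.6 CPM in R07 against 0.954 to 46.4 in withdrawal. Galnt14, which starts O-linked glycans, held 10.7, 33.3, 55.4 and 54.5 CPM against 0.0936 to 14.5. Glt8d2 held 2.19, 5.88, 11.4 and 13.998 CPM against 0.191 to 2.72, and Sec1, a fucosyltransferase, 1.09, 4.25, 5.06 and 6.37 against 0.270 to 2.00. In Csgalnact1 alone of these 4 was the 12 h R07 library above all withdrawal libraries.

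The remaining members were genes of motors and the cytoskeleton and 3 with clone or model names. Kif17, a kinesin, held 5.90, 18.3, 12.1 and 9.26 CPM against 0.0818 to 4.09. Dync2li1, a dynein chain of cilia, held 6.47, 18.5, 18.1 and 14.1 CPM against 2.66 to 6.24, and Espnl, an espin-like actin protein, 3.38, 12.4, 6.29 and 5.63 against 0.0415 to 2.56. Gm16712 held 1.56, 6.22, 9.27 and 8.45 CPM against 0.363 to 0.947, Gm5103 1.26, 2.85, 4.07 and 4.55 against 0 to 1.03, and 1700113H08Rik 3.22, 5.72, 7.57 and 9.68 against 0 to 2.64.

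Exons of 14 members share bases with another gene, for 10 of them only on the opposite strand. The libraries were stranded, but the strand setting of the counting is not given in the sources used here, so reads of such partners cannot be told apart. Gm16712 is antisense to Ebi3, which itself went from 5.52 CPM at 0 h to 26.6 in late R07 (means). Sec1 and Spred3 share exon bases on the opposite strand with Ntn5 (0.857 to 2.84 CPM) and Ggn (1.74 to 2.75 CPM). Kif17 shares exon bases on its own strand with Sh2d5, which went from 36.7 to 72.9 CPM. The partners of Arhgap6 and Glt8d2 went the other way: Hccs from 96.7 to 72.2 CPM and Tdg from 85.5 to 57.3.

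The R07 12 h library asked whether the difference was already there 24 h before the earliest R07 library that the rule used. Most of the genes stood higher in that library than in withdrawal of the same length. Fewer were called higher against 0 h, as given below. All 46 were tested, 30 of them (65.2%) were higher at 12 h in R07 than at 12 h of withdrawal, where 13.4% of all 15371 genes tested were higher. A single gene, Chd3, was lower (11.7% of all genes), and 15 were not called. The median change was 1.14 on the log2 scale, beside 0 over all genes. The test was edgeR's quasi-likelihood test on TMM-scaled counts with Benjamini-Hochberg adjustment over all genes; the lone R07 library was assumed to vary like the withdrawal pairs. The comparison is independent of the rule in the R07 arm only. The 12 h withdrawal libraries counted toward the limit that members had to exceed. That limit bound the members and not the other genes, so the excess over 13.4% is a description and cannot be read as a result.

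The largest 12 h changes were in genes at low levels in the 12 h withdrawal libraries. Inhbb was 5.46 ± 0.36 higher on the log2 scale (± SE; edgeR adjusted p = 3.44e-09), Chl1 5.16 ± 0.40 (adjusted p = 5.03e-08), Epha4 4.72 ± 0.36 (adjusted p = 6.36e-09) and Mycn 4.40 ± 0.43 (adjusted p = 5.48e-07). Gimap8 followed with 4.29 ± 0.30, Paqr5 with 3.91 ± 0.17, Klra1 with 3.45 ± 0.25 and Trib2 with 3.29 ± 0.26. Pou1f1 had no read in either 12 h withdrawal library, its R07 level of 0.405 CPM was at least 11.3-fold higher, and its call (edgeR adjusted p = 0.00418) was lost with DESeq2 (adjusted p = 0.283). Among the abundant genes, Acot1 was 3.28 ± 0.12 higher (adjusted p = 3.86e-13), Gas6 1.603 ± 0.15 (adjusted p = 1.43e-07) and H2-Ob 1.19 ± 0.17 (adjusted p = 2.82e-05).

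At the other end were genes that were high in the later R07 libraries only. Chd3 was 0.49 ± 0.17 lower at 12 h in R07 (edgeR log2 change -0.49, adjusted p = 0.0446), a call that was lost without withdrawal 12 h library A (adjusted p = 0.170). Dlg4 had a log2 change of -0.55 ± 0.23 (adjusted p = 0.0876), Sec1 -0.52 ± 0.32, Spred3 -0.30 ± 0.29, Arhgap6 -0.16 ± 0.14 and Tle6 -0.13 ± 0.22, none of them called. Usp11 (0.05 ± 0.14), Pik3ip1 (0.19 ± 0.16) and Col4a5 (0.21 ± 0.16) were not called either. These genes had the same late R07 separation by rule, yet at 12 h stood beside the withdrawal libraries.

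Inhbb, Trib2 and Mycn stood far below their 0 h levels by 12 h of withdrawal, so the R07 12 h library was also set against 0 h, a comparison added after the data were seen. Against 0 h, 20 members were higher in the R07 12 h library, beside 14.3% of all genes, 0 were lower, beside 9.49% of all genes, and 26 were not called (edgeR, same fit). DESeq2 called 19 higher and 0 lower, and 1 member, Spred3 (-0.66 ± 0.29), was lower at an unadjusted p under 0.05 in edgeR. The median change over members was 0.57 and over all genes 0.03. The 0 h libraries also counted toward the limit of the rule, so these counts are a description too. Klra1 (2.74 ± 0.24, adjusted p = 4.20e-07), Lpar1 (1.79 ± 0.16, adjusted p = 2.00e-07), Patj (1.61 ± 0.29), Gpr171 (1.58 ± 0.16) and Acot1 (1.54 ± 0.12) were higher than at 0 h as well as at 12 h. Inhbb (0.60 ± 0.24, adjusted p = 0.0754), Trib2 (0.55 ± 0.24, adjusted p = 0.112) and Mycn (0.32 ± 0.29, adjusted p = 0.472) were not called against 0 h.

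By level alone, the R07 12 h library exceeded all 20 withdrawal libraries in 27 of the 46 genes, as it did in 14.4% of 11440 genes with a mean of at least 1 CPM, a level that 43 members reached. The rule capped this same withdrawal maximum for members and not for the other genes. The count is therefore a description, and its excess over 14.4% cannot be read as a result. It lay below the lowest late R07 library in 45 of 46. Mitochondrially encoded genes took 2.04% of gene counts in the R07 12 h library, 0.822 to 1.49% in withdrawal and 1.02 to 1.37% in late R07, and their part in the 12 h result was not tested.

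**Figure D3:**
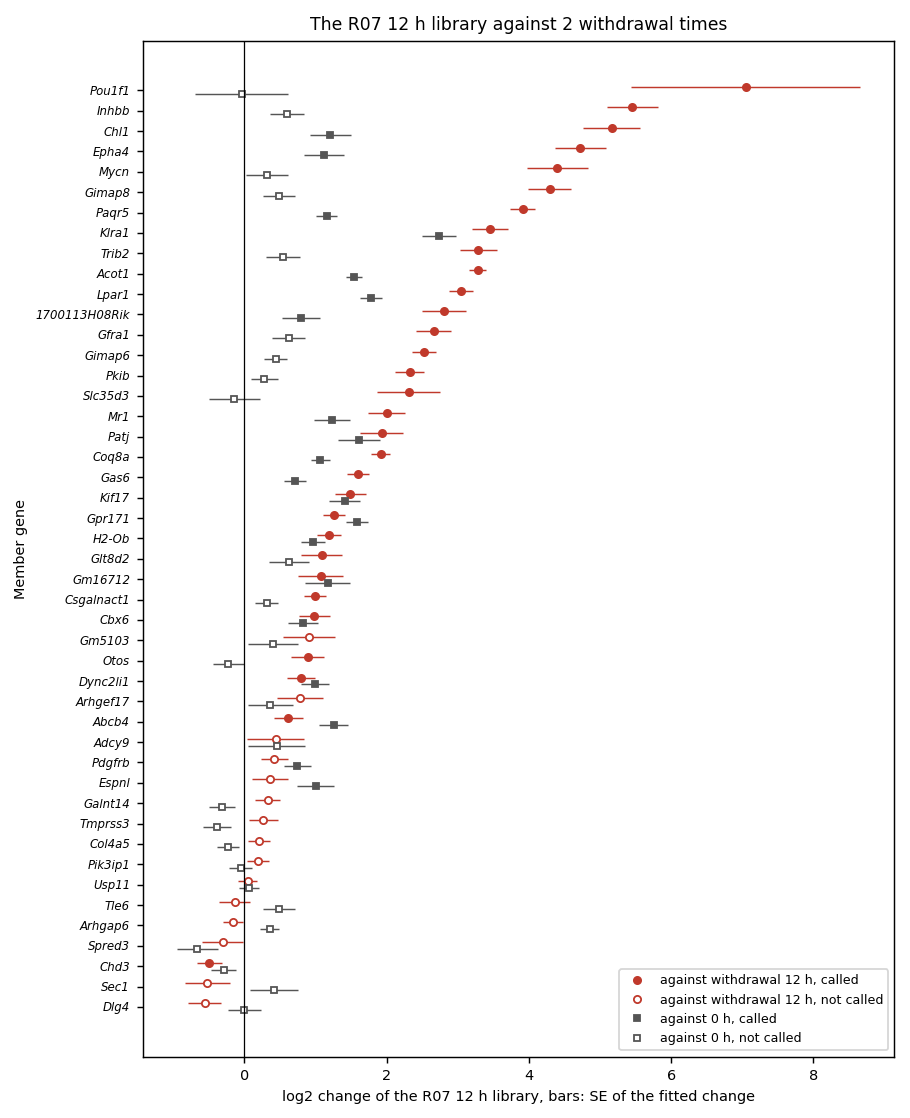
Fitted log2 change of the R07 12 h library for each of the 46 genes (rows), against the 2 withdrawal libraries of 12 h (red circles) and against those of 0 h (grey squares), with bars of 1 SE and filled symbols where edgeR's adjusted p was under 0.05. The circles of Inhbb and Mycn lie above 4 while their squares lie below 1; both symbols of Klra1, Lpar1 and Acot1 are filled and above 1.

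During withdrawal itself the members mostly lost transcripts. At 24 h against 0 h, edgeR called 31 of the 46 lower, beside 14.4% of all 14615 genes tested, and 1, Dync2li1, higher, beside 13.5% of all genes. At 120 h, 32 were lower, beside 40.3% of all genes, and 4 were higher, beside 39.6%. Because the rule caps a member's highest withdrawal level, genes that climb in withdrawal could hardly enter. A 0 h library was the highest of all withdrawal libraries for 13 members. The counts and changes are therefore a description of the set, and no p-value is given for a member. The median member change was -1.32 at 24 h and -1.94 at 120 h, beside 0 and -0.06 over all genes. The call of Dync2li1 was lost when 24 h library B or 0 h library A was left out.

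Ligand, receptor and transcription factor genes were among those that fell early. At 24 h Gas6 had a log2 change of -5.21 ± 0.17, Inhbb of -6.01 ± 0.46, Gimap8 of -6.61 ± 0.42, Paqr5 of -4.68 ± 0.22 and Mycn of -5.11 ± 0.51. At 120 h the change was -7.64 ± 0.44 for Trib2, -5.02 ± 0.19 for Csgalnact1 and -4.03 ± 0.18 for Gimap6. Inhbb, Klra1, Mycn and Pou1f1 had no read at 120 h, and their 0 h means were at least 132-fold, 48.3-fold, 48.0-fold and 11.7-fold higher, again against 3 counts over the 120 h libraries. Another 7 members, making 11 in all, stood under 0.1 CPM at that time.

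Some members fell late or came back. Usp11 was level at 24 h (-0.02 ± 0.12) and lower by 120 h (-3.34 ± 0.15), and Cbx6 had a log2 change of -0.35 ± 0.20 at 24 h, not called, and of -6.40 ± 0.43 at 120 h. Epha4, Pkib and Col4a5 had fallen at 24 h, at -4.92 ± 0.43, -2.97 ± 0.20 and -1.70 ± 0.14, and were not called at 120 h, at -0.59 ± 0.29, 0.28 ± 0.17 and -0.05 ± 0.13. Epha4 was back only in part, with means of 2.28 CPM at 120 h and 4.64 at 0 h. With no filter on low counts, Epha4 was called lower at 120 h. The 120 h change of Pkib was 0.52 when 120 h library A was left out. Dlg4 (1.59 ± 0.19), Lpar1 (1.01 ± 0.14), Mr1 (0.88 ± 0.23) and Acot1 (0.79 ± 0.11) were the 4 called higher at 120 h than at 0 h, the last 3 after a called fall at 24 h. That fall of Lpar1 (-0.55 ± 0.15) was not called when 24 h library B or 0 h library A was left out. By the mean of the pairs, the withdrawal maximum was at 0 h for 15 members, at 4 h for 10, at 8 h for 10 and at 12 h for 3. It was at 36 h for 1, 48 h for 2, 72 h for 2 and 120 h for 3. Among the 43 members of at least 1 CPM, 13 peaked at 0 h, and 16.5% of all genes of that level did.

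**Figure D4:**
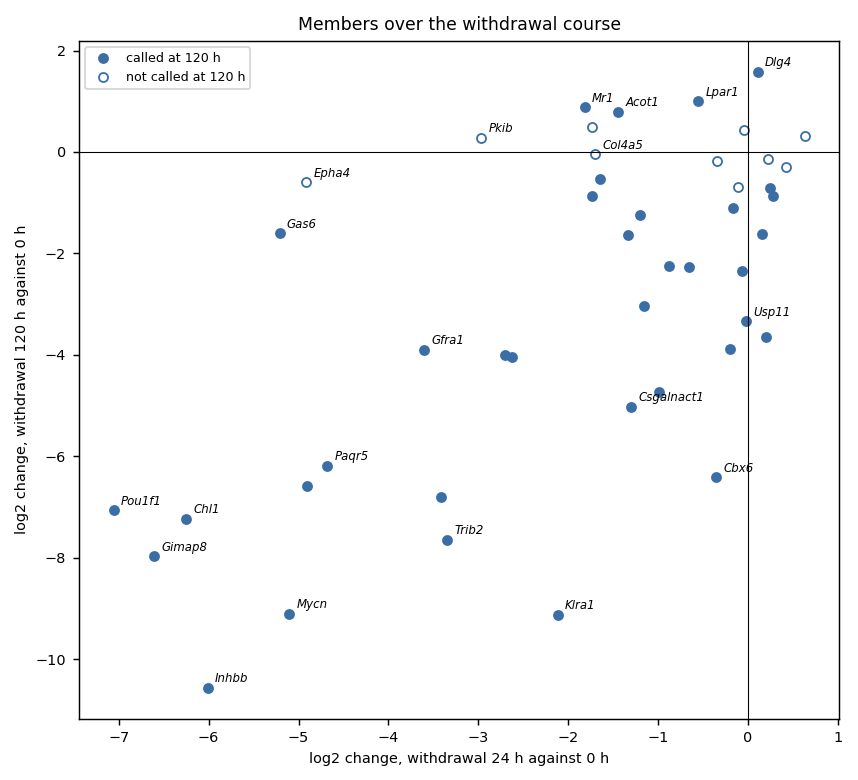
Fitted log2 change of each member after 24 h (x axis) and 120 h (y axis) of withdrawal against 0 h, 1 point a gene, filled where the 120 h change was called at an adjusted p under 0.05. Most points lie in the lower left; Mr1, Acot1 and Lpar1 are left of 0 and above 0, and the fitted 120 h changes of Inhbb, Klra1, Mycn and Pou1f1 are no measured fold, since these genes had no read there.

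Within the R07 libraries the levels did not move as a block. The highest R07 library was that of 36 h for 10 members, of 72 h for 20 and of 120 h for 16. From 36 to 120 h the level rose in 31 and dropped in 15, with a ratio of 0.371 to 2.38 (median 1.24). With 1 library a time these ratios have no replicate check. Among genes without a clone or model name, the largest ratios were in Glt8d2 (5.88 to 13.998 CPM), Mycn (5.07 to 10.6), Patj (6.04 to 10.7), Col4a5 (127 to 225) and Galnt14 (33.3 to 54.5). The smallest ratios were in Klra1 (24.5 to 9.10 CPM), Espnl (12.4 to 5.63), Kif17 (18.3 to 9.26), Otos (12.2 to 8.84) and Adcy9 (3.21 to 2.37). The receptor Klra1 and the cytoskeletal genes thus had their R07 maximum early, whereas Mycn was highest in the last library.

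**Figure D5:**
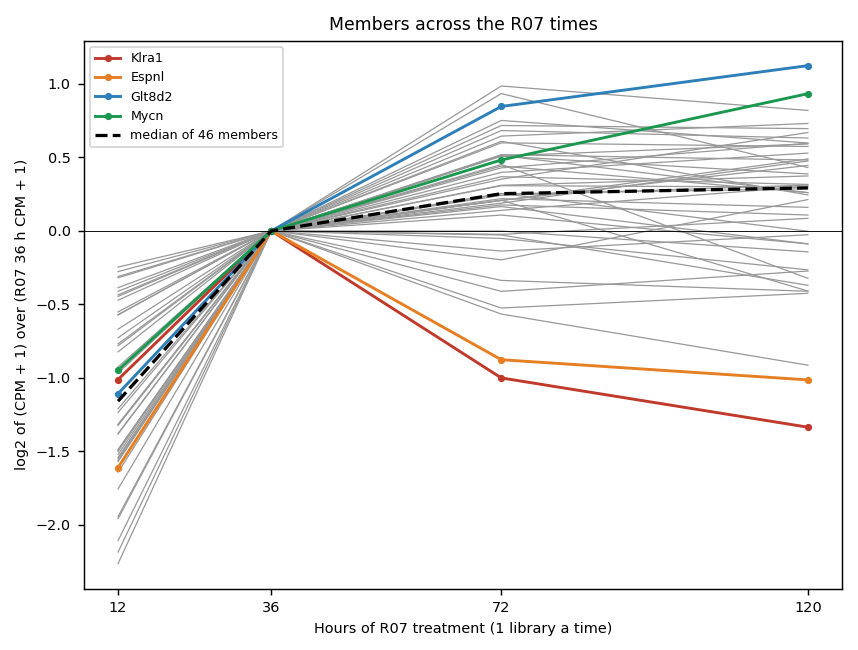
Level of each member in the 4 R07 libraries as log2 of (CPM + 1) over (36 h CPM + 1), 1 grey line a gene, with 4 genes in colour and the median dashed. The median goes from -1.16 at 12 h to 0.25 at 72 h and 0.29 at 120 h; Glt8d2 and Mycn end highest among the coloured genes and Klra1 lowest.

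Few members were in the 44 gene lists set up for this line. Mycn was on the list of blood stem and progenitor genes, Pdgfrb on that of fibroblast and endothelial genes and Acot1 on that of PPAR and fatty acid oxidation genes; the other 43 were on none. The progenitor list was tested next to the set. Without Mycn, 15 of its 24 tested genes were higher in late R07 than in withdrawal of 36, 72 and 120 h and 2 were lower, where 12.4% of all 13754 genes tested were higher and 8.37% lower (edgeR, arm term with time as a factor, fitted for this background; the members were chosen on this contrast). At 12 h, 9 of these 24 were higher and 4 lower, beside 13.4% and 11.7% of all genes. Other progenitor genes, among them Meis1 and Hlf, stood above all withdrawal libraries in late R07 by less than the rule asks. Meis1, the HoxA9 partner, held 29.1 ± 1.06 CPM at 0 h and 36.1, 40.8, 59.5 and 81.3 in R07 (margin 0.44). Hlf held 470 ± 6.76 CPM at 0 h and 509, 591, 767 and 723 in R07 (margin 0.32).

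The B cell list had 10 of 15 tested genes higher and 1 lower in late R07 (12.4% and 8.37% of all genes), and 9 of 16 higher and 1 lower at 12 h (13.4% and 11.7% of all genes). Its sum was 892 CPM in the R07 12 h library, 313 ± 35.9 at 12 h and 628 ± 19.98 at 0 h of withdrawal, and 454 to 683 in late R07. Early lymphoid genes made up most of it: Igll1, Rag2 and Ebf1 stood at 360, 223 and 134 CPM in R07 12 h. Markers of B cells themselves were at or near 0, with Ms4a1 at 0.0203 to 0.138 CPM and Cr2 without a read in R07. The part of other cells in the members' levels was not tested.

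Promoter windows of 300 bases, from 250 before to 50 after a RefSeq start (GRCm38.p6), were found for 39 of the 46 genes, 53 windows in all. They were searched on both strands for 19 motifs. The GC box GGGCGG was in 49.1% of member windows and 35.7% of all 32851 windows, and TGACNNNGC, the NRF2 motif, in 20.8% and 12.4%. The NRF2 matches were in 11 member windows of 8 genes. TTTCNNTTTC, the interferon-response motif, was in 7.55% of member windows, 4 in number, and 3.44% of all. The Inhbb window holds it on the reverse strand, not in capitals above. The TATA box TATAAA was in 3.77% and 13.6%, and the p53 motif CATGNCNNG in 3.77% and 10.5%. HOX-PBX TGATTNAT was in 1.89% and 3.22%, MEIS TGACAG in 16.98% and 19.2%, and the full oestrogen element in 0% and 0.0700%. CpG-rich windows, with at least 50% GC and an observed over expected CpG of at least 0.6, were 30.2% of member windows and 33.5% of all. Windows of a gene can overlap, and the shares are a description of these letters only.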

How the data were processed

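RNA was sequenced in 24 libraries, 20 of estradiol withdrawal and 4 of R07. Per the labels' protocols, poly(A) RNA was selected with oligo-dT beads and sequenced as stranded paired ends of 101 bases. The authors deposited whole-number counts per gene with no normalization; STAR 2.4.2a, Picard and mm10 are named in the submitters' processing notes, and the counting program, strand setting and annotation are not given in the sources used here. The 4 lines that name no gene, 14.3 to 17.3% of reads, were left out. Symbols and positions came from GENCODE M21 for 44585 of 45318 Ensembl rows, and promoters from RefSeq.

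TMM scaling and filterByExpr preceded quasi-likelihood tests in edgeR 4.0.16 (under R 4.3.3 and limma 3.58.1), called at a Benjamini-Hochberg adjusted p under 0.05. R07 12 h was compared with withdrawal 12 h in a fit of all 24 libraries with 14 groups, and withdrawal times with 0 h in a fit of 20. The tests were tested on simulated data with 200 genes changed 2-fold, of which 93.5 to 94% were recovered. False calls were 6.03% of calls for R07 12 h, 6.5% for withdrawal 24 h and 3.59% for 120 h. The genes, lists, motifs and comparisons were chosen with earlier results of these data known. Named genes were taken by margin, by late level, by the largest changes in each comparison and across R07 times, and from the lists; all 46 members are described. Alternatives were RLE scaling, no filter, DESeq2 1.42.0, other libraries in the fit, a block, leaving out each library, and other settings of the rule. Bounds use 3 counts over a group. A CPM level changes with what else a library holds, and TMM factors ran from 0.749 to 1.11.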

Additional observations from a re-analysis of the deposited data

How the results depend on the processing

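The number of genes under the rule depended on its settings. A margin of 1.0 gave 29 genes and 0.6 gave 88, and a pseudocount of 0.5 gave 60, with the 46 included in the latter pair of sets. Leaving out an R07 library gave 49 to 151 genes, the lowest without 72 h, 81 without 120 h and the highest without 36 h, all holding the 46. With TMM-scaled library sizes 35 remained; Acot1, Adcy9, Dlg4, Gfra1, Gimap8, Lpar1, Mr1, Otos, Patj, Pkib and Sec1 missed the margin.

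For R07 12 h against withdrawal 12 h, the count of higher members was 29 to 31 under RLE scaling, no filter, DESeq2, the smaller fit and either withdrawal library left out. The count of lower members was 0 or 1, with 0 without withdrawal 12 h library A; in place of 12 h, the 0 h libraries gave 20 higher and 0 lower. Gm16712 was lost without 12 h library B (adjusted p = 0.0933, edgeR) and Abcb4 without either library (adjusted p = 0.0823 and 0.107). At 24 h, leaving out each library gave 27 to 28 lower and 0 to 1 higher, and the count of higher members was 0 when 24 h library B or 0 h library A was left out. At 120 h it gave 30 to 32 lower and 4 to 5 higher.

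The labels number the libraries of a time, but the column letters A and B are not tied to those numbers. Over 45 pairs of times, deviations of same-letter libraries correlated at -0.158 to 0.215 (median 0.01), and 7 of the correlations were over 0.1. No clear pairing by letter was seen, but a weak pairing could be missed in this way. A replicate block on the letter gave 30 lower and 1 higher at 24 h, where Gm5103 was lost, and 32 lower and 4 higher at 120 h. No paired analysis was possible for R07, because its columns carry another letter. Each R07 time has 1 library, and levels near 0 rest on few reads.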
